A study of Mus musculus with 4 samples.

Results

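The annexins described here are 10 genes, Anxa1, Anxa2, Anxa3, Anxa4, Anxa5, Anxa6, Anxa7, Anxa10, Anxa11 and Anxa13, of 22456 gene symbols in the deposited expression table. They were chosen by name, with their levels and genotype differences in these same libraries already known, so every call on them below is a description and supports nothing by itself. RNA-seq was done on jejunal epithelium of adult mice of a 129xC57/Bl6xSvJ mixed background. There were 4 libraries: 2 from Cre- controls and 2 labelled Hnf4a;Cdx2 double-knockout (called mutant-labelled from here on), in which both transcription factor genes carried conditional alleles. All mice, controls included, received 1 mg of tamoxifen on each of 5 days, which switches on the Cre recombinase where it is present. The driver of Cre, the exons removed, the exact age and the time from the last dose to collection are not named in the sources used here. The labels call the libraries independent biological replicates, and p-values rest only on the spread between these few libraries, part of it pooled over genes.

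Annexins are soluble proteins that bind negatively charged membrane lipids, above all phosphatidylserine, when calcium rises. Most consist of a conserved core that holds the calcium sites and a variable N-terminal tail that binds partner proteins, often small S100 proteins. They are known for membrane repair, vesicle traffic and the linking of membrane to actin, and in gut epithelium several lie beneath the brush border. Anxa13 is known as an intestinal annexin and Anxa10 as an annexin of the stomach.

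The labels were first checked on the targeted genes. Hnf4a was at 156 and 202 FPKM (fragments scaled to transcript length and to library size, so a level per length) in the controls and at 31.6 and 48.2 in the mutant-labelled libraries. Cdx2 went against its label: it was at 70.9 and 65.2 FPKM in the controls and at 160 and 161 in the mutant-labelled libraries, a log2 difference of 1.23 ± 0.15 (SE, limma, adjusted p = 0.0150). The part of Cdx2 that was deleted is not given, so whether its transcript level checks the deletion was not tested. The 9 enterocyte markers summed to between 42853 and 45332 FPKM in the controls and between 33979 and 50291 in the mutant-labelled libraries, sums carried by Apoa1, Apoa4, Fabp1 and Fabp2. Of these 9 markers 3 were called lower and none higher, beside 5.8% and 3.77% of all genes tested. Lct, which encodes lactase, was at 300.0 and 283 FPKM in the controls and at 2.70 and 0.742 in the mutant-labelled libraries. Sis (sucrase-isomaltase) was at 462 and 1554 and then 57.1 and 25.7 FPKM, and Vil1, the brush border protein villin, at 970 and 1024 and then 508 and 487 FPKM. Alpi was at 447 and 645 and then 1106 and 764 FPKM, and Anpep at 1721 and 1557 and then 2514 and 2127. Both were higher without overlap and were not called. Apoa1 was lower without overlap and not called, and the groups of Fabp1, Fabp2 and Apoa4 overlapped. Among 6 epithelial markers, Epcam fell by 1.19 on the log2 scale (adjusted p = 0.02999) and Krt19 rose by 1.80 (adjusted p = 0.0150); their part in the annexin differences was not tested. Smooth muscle and endothelial marker sums stayed at or below 2.39 FPKM in every library. The files hold no read totals. The steps between low values gave relative depths of 100% for control 1, 68.5% for control 2, and 65.2% and 49.8% for mutant-labelled libraries 1 and 2.

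Promoter sequences are shown for 3 annexins that behaved differently: Anxa10, which went from near 0 to a clear level, Anxa2, which stayed the most abundant member, and Anxa4, the member called lower. Each is the 250 bases upstream of a RefSeq start on the GRCm38.p6 build, 5′ to 3′ on the gene's strand, and capitals mark every match, on either strand, to the motifs searched. Motifs were chosen after the sequences had been seen. Of the 12 annexins in the table, 9 matched the RefSeq promoter table, with 12 promoters; Anxa3, Anxa6 and Anxa13 did not.
Anxa10 (chr8:62123194-62123443, minus strand): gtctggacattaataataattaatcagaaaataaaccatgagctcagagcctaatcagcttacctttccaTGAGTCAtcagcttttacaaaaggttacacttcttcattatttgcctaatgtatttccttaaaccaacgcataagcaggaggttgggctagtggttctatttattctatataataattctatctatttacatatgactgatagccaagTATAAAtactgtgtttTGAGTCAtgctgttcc
Anxa2 (chr9:69453433-69453682, plus strand): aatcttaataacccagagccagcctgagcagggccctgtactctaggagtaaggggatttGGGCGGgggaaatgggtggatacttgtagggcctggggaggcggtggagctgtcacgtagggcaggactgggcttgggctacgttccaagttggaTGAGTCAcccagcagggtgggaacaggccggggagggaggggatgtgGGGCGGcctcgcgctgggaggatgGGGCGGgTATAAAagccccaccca
Anxa4 (chr6:86793585-86793834, minus strand): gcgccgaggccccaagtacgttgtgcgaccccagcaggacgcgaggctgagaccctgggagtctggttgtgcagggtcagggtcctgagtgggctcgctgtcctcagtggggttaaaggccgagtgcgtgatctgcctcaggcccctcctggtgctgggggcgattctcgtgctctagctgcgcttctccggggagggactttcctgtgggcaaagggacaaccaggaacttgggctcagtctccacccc

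The Anxa10 window was poor in G and C at 33.6%, with 1 CpG, beside a median of 52.4% and 6 CpG over all 32851 promoters of the RefSeq table. It held TATAAA, the core of the TATA box, from base -32 to -27 before the start, and TGAGTCA, a form of the AP-1 element TGANTCA, at -180 to -174 and again at -16 to -10. In the Anxa2 window, at 62.4% G and C, TATAAA lay at -17 to -12, TGAGTCA began at -95, and the GC box, GGGCGG, began at -190, -48 and -24. The Anxa4 window held none of these letters, and neither did the window at its other listed start. TATAAA occurred in 12.4% of all promoters, TGANTCA in 6.75% and GGGCGG in 32.7%. Motifs of the targeted factors were also searched: CAAAGTCCA and CAAAGGTCA, forms of the HNF4 element, and GCNATAAA, a form of the CDX2 element. They occurred in 0.384%, 0.426% and 2.32% of all promoters and in none of the 12 annexin windows, which says only that these letters are not in these windows.

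In control epithelium the annexins spanned a wide range of levels. Anxa2 stood first at 995 and 1238 FPKM, followed by Anxa4 at 757 and 732, Anxa13 at 372 and 251, Anxa11 at 89.6 and 98.8 and Anxa7 at 52.6 and 57.9. The library values of these 5 did not overlap between neighbours in the order. Anxa3 and Anxa5 came next, between 5.33 and 6.02 FPKM, and overlapped each other, as did Anxa6 and Anxa1 between 0.454 and 1.81 FPKM. Anxa10 was last, at 0.0623 FPKM in control 1 and listed at 0 in control 2. In the mutant-labelled libraries Anxa2, Anxa4 and Anxa13 kept the first places without overlap. Anxa11, Anxa7, Anxa10 and Anxa3 then formed a run between 44.9 and 101 FPKM in which each neighbour overlapped the next. Anxa1, Anxa5 and Anxa6 did not exceed 4.61 FPKM.

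**Figure D1:**
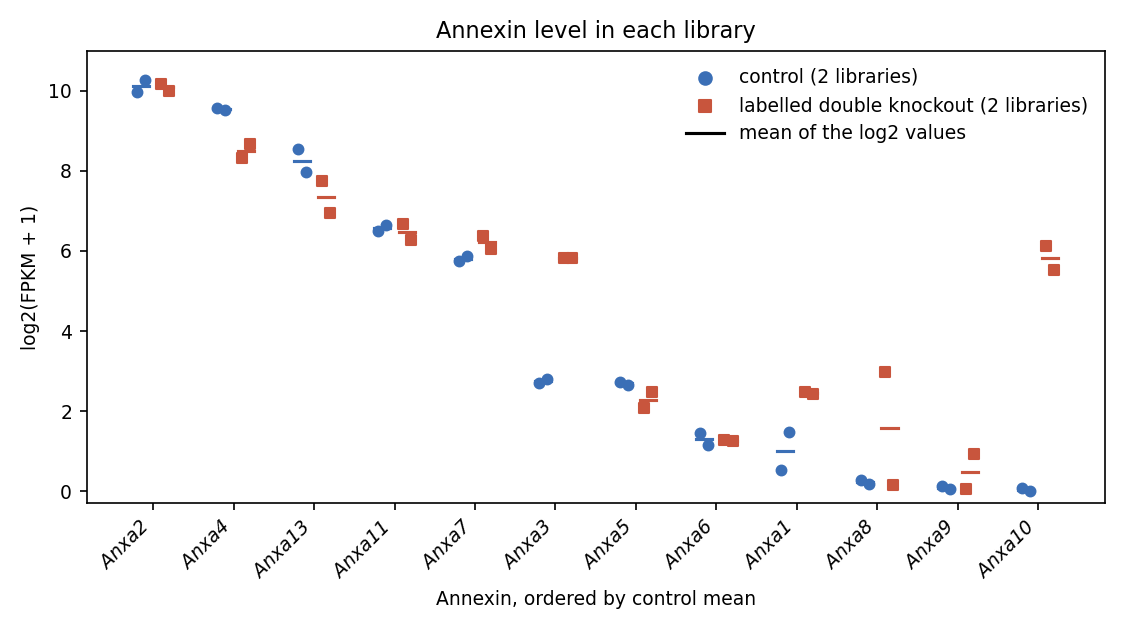
Level of 12 annexins as log2(FPKM + 1) on the vertical axis, ordered by control mean. Circles are the 2 control libraries, squares the 2 mutant-labelled libraries, and short lines in the colour of each group the mean of its log2 values. Anxa3 and Anxa10 lie far higher in both squares than in both circles, while the Anxa2 values of the groups overlap.

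All 10 annexins averaged 1 FPKM or more across the libraries and were tested with limma on log2(FPKM + 1) among 10883 genes, with calls at an adjusted p under 0.05. Anxa10 passed that filter only through the mutant-labelled libraries. Of the 10, 3 were called, 2 higher (Anxa3, Anxa10) and 1 lower (Anxa4). Over all genes tested, 9.57% were called, 3.77% higher and 5.8% lower. The groups did not overlap for 7 of the 10, 4 of them higher and 3 lower in the mutant-labelled libraries, beside 60.7% of all genes tested. Nothing is read from these counts, since the members were chosen with this contrast known. The median log2 difference was -0.04 over the annexins and 0.02 over all genes tested. With the authors' FPKM estimated for each library alone, the median over all genes was 0.17 and the calls divided into 515 higher and 478 lower, in place of 410 and 631. With 2 libraries a group, the smallest p that exact permutation allows is 0.333.

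Anxa10 had the greatest difference of the family. It is an annexin known for weak calcium binding and for its place in gastric epithelium. Its locus lies on mm9 chromosome 8 from 64535839 to 64601990. The level was 0.0623 FPKM in control 1, listed at 0 in control 2, and 68.2 and 44.9 FPKM in mutant-labelled libraries 1 and 2. Both mutant-labelled libraries were thus far above both controls, and the control 1 value is worth about 1.41 to 2.04 reads depending on the transcript length used. The log2 difference was 5.77 ± 0.24 (SE, adjusted p = 0.00133), a size that depends on the pseudocount, and no fold is given against a library listed at 0. It was called in all 11 alternatives run. Since Anxa10 passed the filter only through the mutant-labelled libraries, nothing is read from these calls. The authors' deposited table did not call Anxa10, with a q-value of 0.563 between group values of 0.0288 and 54.6 FPKM.

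Summed markers of stomach cells were also higher. The 7 listed markers of gastric mucous cells summed to 2.40 and 1.68 FPKM in the controls. In mutant-labelled libraries 1 and 2 they summed to 3528 and 1671, mostly through Gkn1, Gkn2 and Tff2. The 5 that were tested were called higher, but Gkn1, Gkn2, Tff2 and Vsig1 passed the filter on low values only through the mutant-labelled libraries, so nothing is read from that count. The defining surface mucous cell genes Tff1 and Muc5ac did not appear. Tff1 was listed at 0 in all 4 libraries and Muc5ac reached at most 0.00906 FPKM. Markers of gastric glands summed to 1.09 and 0.509 FPKM in the controls and to 46.6 and 30.2 in the mutant-labelled libraries. The 3 gland markers tested, Atp4a, Gif and Pgc, likewise passed the filter only through the mutant-labelled libraries, and Muc6 and Atp4b did not exceed 0.176 FPKM in any library and were not tested. In bulk epithelium, more cells of a type and more RNA per cell cannot be told apart, and the part of these markers in the Anxa10 difference was not tested.

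The tested genes whose profile over the 4 libraries lay nearest to Anxa10, by Euclidean distance on the log2(FPKM + 1) scale, were Syt8, Ctse and Pgc. Syt8, a synaptotagmin, lay at a distance of 0.945 and was at 0.0417 and 0.0609 FPKM in the controls and at 52.8 and 24.1 in the mutant-labelled libraries. Ctse, which encodes the aspartic protease cathepsin E, lay at 1.25, and Pgc, which encodes progastricsin, a pepsinogen, at 1.46. Their log2 differences were 5.13, 4.71 and 4.51. Direction and size follow from the choice of genes by likeness to Anxa10, and all 3 passed the filter only through the mutant-labelled libraries. The nearest tested gene beside Anxa10 on the chromosome was Ddx60, 19.3 kb away. It was at 3.74 and 5.96 FPKM in the controls and at 10.97 and 134 in the mutant-labelled libraries, and it was not called (adjusted p = 0.189).

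Anxa3 rose in both mutant-labelled libraries. It is a calcium-dependent phospholipid-binding annexin best known from neutrophil granules, and its locus spans 97222404 to 97274987 of mm9 chromosome 5. Its level was 5.47 and 6.02 FPKM in the controls and 55.3 and 55.5 in the mutant-labelled libraries. The values within each group were close together and the groups lay far apart. The mean level was 9.64-fold higher, and the log2 difference was 3.06 ± 0.15 (SE, 95% interval 2.69 to 3.44, adjusted p = 0.00164). Leukocyte markers, 9 genes, summed to 25.0 and 59.7 FPKM in the controls and to 14.7 and 25.7 in the mutant-labelled libraries, a sum to which Lyz2 gave 8.60, 34.8, 1.86 and 2.66 FPKM in that order. Of the 6 leukocyte genes tested, Itgam was called lower (adjusted p = 0.0410), beside 5.8% of all genes tested. Itgam passed the filter on low values only through the controls, so nothing is read from its call. Lyz2 was lower without overlap and not called, and the groups of Ptprc, Cd3e, Cd3g and Cd8a overlapped. The means of Cd3e and Cd3g were higher in the mutant-labelled libraries, at 2.77 and then 3.61 FPKM and at 5.04 and then 6.54 FPKM. The part of leukocyte RNA in the Anxa3 difference was not tested. All 11 alternatives called Anxa3, and the authors' deposited table also called it, with a q-value of 0.000868. Its neighbour Bmp2k, a kinase gene 152 kb away, fell by 1.11 on the log2 scale (adjusted p = 0.0285), opposite in direction to Anxa3. On the other side Mrpl1, 527 kb away, was higher without overlap, as Anxa3 was, and was not called (log2 difference 0.46, adjusted p = 0.152).

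Anxa1 was higher in both mutant-labelled libraries but was not called. It encodes annexin A1, a glucocorticoid-induced protein that limits inflammation and was first known as an inhibitor of phospholipase A2. The gene, on mm9 chromosome 19 from 20447924 to 20465161, was at 0.454 and 1.81 FPKM in the controls and at 4.56 and 4.39 in the mutant-labelled libraries. The controls lay farther from each other than the mutant-labelled libraries did, and the groups did not overlap. The log2 difference was 1.44 ± 0.35 (SE, 95% interval 0.54 to 2.34, adjusted p = 0.0697). Anxa1 passed the threshold with the FPKM estimated for each library alone (1.35, adjusted p = 0.0464), and the authors' deposited table called it with a q-value of 0.0443. Its receptors Fpr1, Fpr2 and Fpr3, formyl peptide receptors of leukocytes, did not exceed 0.263 FPKM in any library and were not tested. Pla2g4a, the cytosolic phospholipase A2, was at 3.81 and 8.10 FPKM in the controls and at a mean of 12.1 ± 0.20 (SD, n = 2) in the mutant-labelled libraries, with a log2 difference of 0.99 ± 0.33 (SE) that was not called (adjusted p = 0.129).

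Anxa4 was the annexin with the deepest fall. It binds membranes of secretory and absorptive epithelia and is usually found near the apical and lateral surface. Its locus spans 86686834 to 86743578 of mm9 chromosome 6. Anxa4 was at 757 and 732 FPKM in the controls and at 321 and 407 in the mutant-labelled libraries, with a gap between the groups wider than the spread in either. It was 2.05-fold lower by the means, and the log2 difference was -1.04 ± 0.21 (SE, 95% interval -1.58 to -0.50, adjusted p = 0.0477). The call sat at the threshold: 8 of 11 alternatives lost it, among them the fits without any one library (adjusted p from 0.0926 to 0.156), with the replicate block (0.0968) and with the FPKM of each library alone (0.0820). The authors' deposited table did not call Anxa4 either, with a q-value of 0.0951.

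The genes with profiles nearest to Anxa4 were Slc9a3r1 at a distance of 0.336, Gm15292 at 0.392 and Phgr1 at 0.522. Slc9a3r1 encodes a scaffold protein of the brush border and was at 720 and 728 FPKM in the controls and at 402 and 393 in the mutant-labelled libraries (log2 difference -0.86 ± 0.18, adjusted p = 0.0509, not called). Phgr1, an abundant transcript of gut epithelium, had a log2 difference of -1.11 ± 0.21 (adjusted p = 0.0422). The direction of these 3 follows from their choice by likeness to Anxa4. The tested neighbour of Anxa4 on the chromosome, Gmcl1, lay 3.46 kb away and was not called (log2 difference -0.24, adjusted p = 0.402).

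Anxa13 was lower in both mutant-labelled libraries and was not called. It is the annexin most specific to intestinal epithelium, attaches to membranes through a fatty acid on its N terminus and takes part in apical sorting. At its locus, on mm9 chromosome 15 from 58173019 to 58220829, the level was 372 and 251 FPKM in the controls and 213 and 124 in the mutant-labelled libraries. The groups did not overlap, but replicates differed widely within each. The log2 difference was -0.91 ± 0.35 (SE, 95% interval -1.80 to -0.02, adjusted p = 0.169), and no alternative called it. In the authors' deposited table Anxa13 had a q-value of 0.0597 and was not called.

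**Figure D2:**
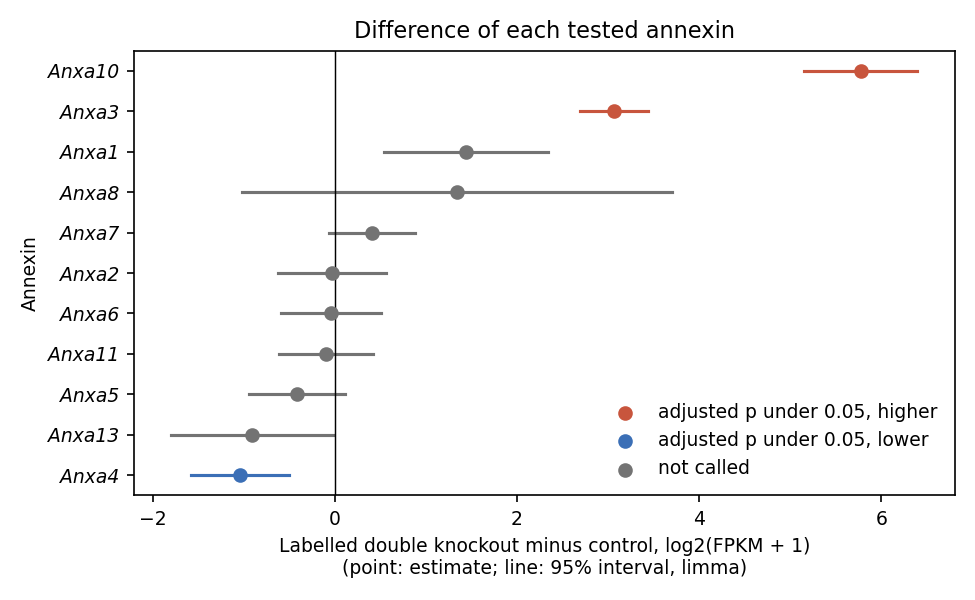
Difference of each tested annexin, Anxa8 included, on the horizontal axis as labelled double knockout minus control in log2(FPKM + 1). Points are limma estimates and lines 95% intervals, coloured by call. Anxa10 at 5.77 and Anxa3 at 3.06 are called higher and Anxa4 at -1.04 lower, and the intervals of Anxa2, Anxa6, Anxa11, Anxa5, Anxa7 and Anxa8 cross 0.

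Anxa2 did not differ detectably between the groups. It encodes annexin A2, which forms a complex with S100a10 beneath the plasma membrane, bundles membrane to actin and binds plasminogen and its activator at the cell surface. On mm9 chromosome 9 from 69301490 to 69339592, the gene was at 995 and 1238 FPKM in the controls and at 1157 and 1020.0 in the mutant-labelled libraries. The groups overlapped, and Anxa2 lay at percentile 99.3 to 99.4 of the tested genes in each library. The log2 difference was -0.03 ± 0.23 (SE, adjusted p = 0.949), and its 95% interval from -0.63 to 0.57 leaves room for a moderate change in either direction.

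The remaining 4 members were not called. Anxa7, a membrane-fusing annexin known as synexin, was at 52.6 and 57.9 FPKM in the controls and at 82.3 and 65.8 in the mutant-labelled libraries, without overlap (log2 difference 0.41 ± 0.18, adjusted p = 0.222). Anxa5, the phosphatidylserine-binding protein used to stain dying cells, was at 5.66 and 5.33 FPKM in the controls and at 3.23 and 4.61 in the mutant-labelled libraries, also without overlap (-0.42 ± 0.21, adjusted p = 0.259). For Anxa11, which tethers RNA granules to lysosomes and binds calcium sensors, the values were 89.6 and 98.8 against 101 and 76.5 FPKM. Those of Anxa6, the annexin with a doubled core, were 1.74 and 1.22 against 1.41 and 1.37 FPKM. The groups of Anxa11 and Anxa6 overlapped, with log2 differences of -0.09 ± 0.20 and -0.05 ± 0.21 (adjusted p = 0.796 and 0.913). The authors' deposited table called 2 of the 10 annexins (Anxa1, Anxa3), beside 13.2% of all the entries that table tested.

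Taken as a sum, the annexins held a smaller share of the mutant-labelled libraries, though single members moved in both directions. The FPKM of 12 annexins summed to 2279 and 2392 in the controls, or 0.353% and 0.359% of all FPKM, and to 2014 and 1805 in the mutant-labelled libraries, or 0.292% and 0.280%. Anxa2 held 43.6% and 51.8% of the annexin sum in the controls and 57.5% and 56.5% in the mutant-labelled libraries. Anxa4 held 33.2% and 30.6% and then 15.9% and 22.6%. Anxa13 held 16.3% and 10.5% and then 10.6% and 6.8%, with overlap between the groups. Anxa3 and Anxa10 together went from traces to a visible layer: Anxa3 held 0.240% and 0.252% of the sum in the controls and 2.74% and 3.08% in the mutant-labelled libraries, and Anxa10 3.39% and 2.49% in the latter. The level of Anxa4 per level of Anxa2 was 0.761 and 0.591 in the controls and 0.277 and 0.399 in the mutant-labelled libraries, without overlap. These shares are descriptions and were not tested.

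**Figure D3:**
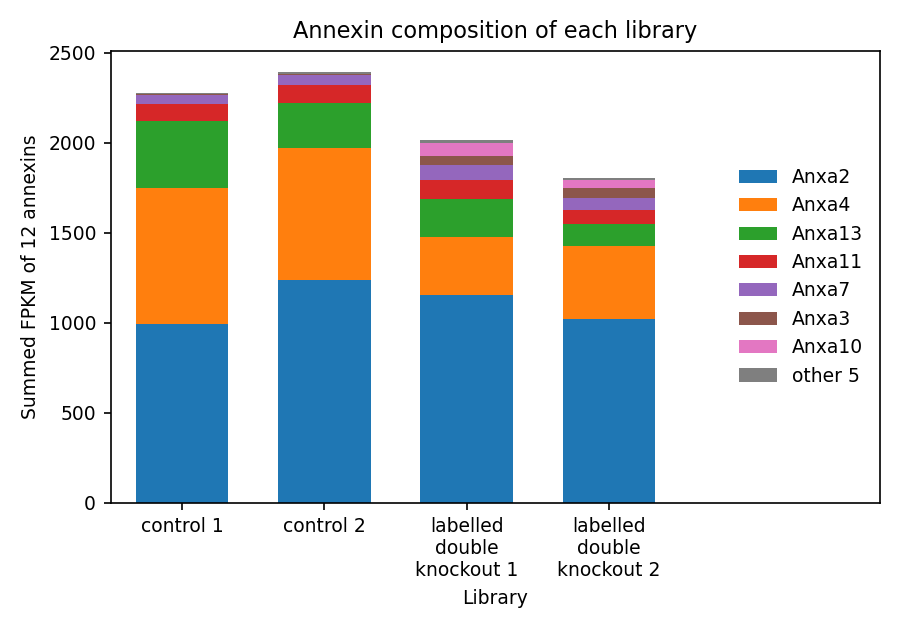
Summed FPKM of 12 annexins on the vertical axis, from 0, stacked by gene for each of the 4 libraries. The Anxa4 layer is thinner in both mutant-labelled libraries (15.9% and 22.6% of the sum) than in the controls (33.2% and 30.6%), and layers for Anxa3 and Anxa10 are visible only in the mutant-labelled libraries.

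The other annexins in the table, Anxa8 and Anxa9, are not among the 10. Anxa8, an annexin of stratified epithelia, was at 0.215 and 0.135 FPKM in the controls and at 6.93 and 0.123 in mutant-labelled libraries 1 and 2. By the steps of low values, taken as whole reads, these were about 7, 3, 147 and 2 reads. Only mutant-labelled library 1 was high, so the groups overlapped. The log2 difference was 1.35 ± 0.92 (SE, adjusted p = 0.394), and without that library it was -0.06. The authors' deposited table called Anxa8 with a q-value of 0.0180. Besides Anxa8, only Fam83a had at least 5 FPKM in that library and under 0.5 FPKM in each of the other 3. Of the 5 squamous cell markers, Krt5 and Trp63 were listed at 0 in every library and the sum did not exceed 0.409 FPKM. Anxa9 was at 0.0893 and 0.0434 FPKM in the controls and at 0.0457 and 0.897 in the mutant-labelled libraries, below the filter, and was not tested.

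Genes that work with annexins were taken from lists of textbook partners. All 39 were in the table, 28 were tested, 3 were called higher (Plat, Plaur, Myof) and 2 lower (Ano6, Pdcd6), beside 3.77% and 5.8% of all genes. Plat passed the filter only through the mutant-labelled libraries, so nothing is read from the count of higher calls. Their median log2 difference was 0.24, beside 0.02 over all genes tested. The replicate block left 3 of the 5 calls, beside 786 of 1041 calls over all genes. The fits without any one library left fewer still, among the partners and over all genes.

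None of the 5 tested S100 partners was called, though 3 were higher and 1 lower without overlap, beside 60.7% of all genes tested. S100a6 had the greatest difference of them and just missed the threshold (log2 difference 2.04 ± 0.42, adjusted p = 0.0509). It was at 157 and 364 FPKM in the controls and at 1037 and 932 in the mutant-labelled libraries. S100a10, the partner of Anxa2, was at 895 and 1222 FPKM in the controls and at 1072 and 1223 in the mutant-labelled libraries, with overlapping groups (log2 difference 0.13 ± 0.25, adjusted p = 0.774). Its level per level of Anxa2 was 0.899 and 0.987 in the controls and 0.926 and 1.20 in the mutant-labelled libraries. S100a11, which binds the tail of Anxa1, was at 219 and 447 FPKM in the controls and at 874 and 828 in the mutant-labelled libraries. Its groups did not overlap, and the controls lay far from each other. The log2 difference was 1.44 ± 0.37 (SE, adjusted p = 0.0792). S100a11 passed the threshold with the FPKM estimated for each library alone (1.6, adjusted p = 0.0317).

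In the surface plasminogen list, 2 of 3 tested genes were called higher and none lower, beside 3.77% and 5.8% of all genes tested. Plat, which encodes tissue plasminogen activator, a ligand of the Anxa2 complex, was at 0.126 and 0.277 FPKM in the controls and at 4.50 and 4.23 in the mutant-labelled libraries (log2 difference 2.16 ± 0.20, adjusted p = 0.00809). Plat passed the filter only through the mutant-labelled libraries, so nothing is read from its call. Plaur, the urokinase receptor, was at 1.32 and 1.93 FPKM in the controls and at 6.14 and 5.71 in the mutant-labelled libraries (1.41 ± 0.20, adjusted p = 0.0195). Both mutant-labelled libraries lay above both controls for Plat and Plaur, at levels far below that of Anxa2. The other tested gene, Plgrkt, was at 107 and 83.9 FPKM in the controls and at 116 and 203 in the mutant-labelled libraries. It was also higher without overlap and was not called (0.69 ± 0.32, adjusted p = 0.231). Plaur lost its call in each fit without 1 library (adjusted p from 0.0618 to 0.0810), and Plat only without control 1 (0.0503).

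Phosphatidylserine exposure makes the lipid that Anxa5 binds available at the cell surface. In the list for it, 1 of 7 tested genes was called lower and none higher, beside 5.8% and 3.77% of all genes tested. Ano6, a calcium-activated lipid scramblase, was at 119 and 130 FPKM in the controls and at 38.6 and 25.6 in the mutant-labelled libraries. The groups were far apart, with a log2 difference of -1.95 ± 0.24 (SE, adjusted p = 0.0141). The call was lost without control 1 (0.0745) or control 2 (0.0889).

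Of the 6 calcium-sensor and ESCRT partners, 1 was called lower, beside 5.8% of all genes tested. Pdcd6, the penta-EF-hand sensor ALG-2 that binds Anxa7 and Anxa11, was at 170 and 212 FPKM in the controls and at 102 and 97.3 in the mutant-labelled libraries (log2 difference -0.93 ± 0.18, adjusted p = 0.0464). Among 6 tested genes of membrane repair and scaffolding, 1 was called higher, beside 3.77% of all genes tested. Myof, a ferlin that patches membranes, was at 1.83 and 2.39 FPKM in the controls and at 5.74 and 4.65 in the mutant-labelled libraries (1.00 ± 0.20, adjusted p = 0.0481). Neither gene's groups overlapped. Each lost its call in every fit without 1 library, where the adjusted p ran from 0.0860 to 0.158 for Pdcd6 and from 0.111 to 0.168 for Myof.

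**Figure D4:**
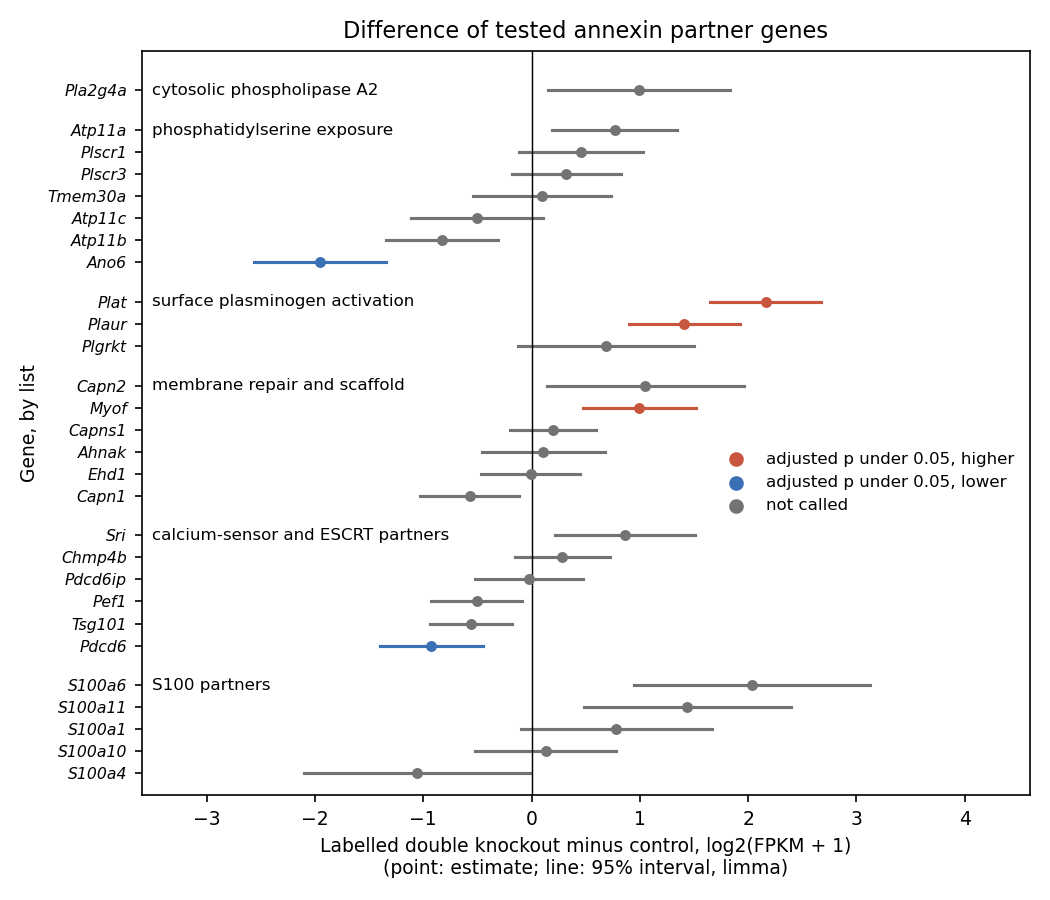
Difference of 28 tested partner genes, grouped by list, on the horizontal axis as labelled double knockout minus control in log2(FPKM + 1), with limma estimates as points and 95% intervals as lines. Plat, Plaur and Myof are called higher and Ano6 and Pdcd6 lower, and the other 23 are not called.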

How the data were processed

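Jejunal epithelium of 4 mice was measured by single-end RNA-seq; sample titles gave the groups and replicate numbers. The submitters' processing notes name the build mm9 and the tools Cuffdiff, Cuffnorm, Cufflinks (version 2.1.1) and TopHat2 (version 2.0.9), without roles. A joint table that the authors deposited has 23735 entries, 1 column per library and no named unit; it was taken as FPKM normalized between libraries. They also deposited 1 file per library with 24460 entries of FPKM, per the file headers, used as an alternative. A table of the authors' comparison holds group FPKM, p-values and q-values, per the file headers.

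Entries sharing a symbol were summed (147 symbols), and 1036 symbols of short RNAs were dropped. The 10883 genes that averaged 1 FPKM or more were tested on log2(FPKM + 1) with limma 3.58.1 (R 4.3.3), two-sided, with an intensity trend and Benjamini-Hochberg adjustment over all of them. The limma variance of each gene was drawn toward the trend over all genes tested. Folds on this scale understate changes of low genes. The procedure was tested on simulated data. The authors' starts were read as counting from 0 and are printed counting from 1: of 12 loci, 5 then matched RefSeq spans, against 1 otherwise.

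Low FPKM values were taken as steps of whole reads. With the smallest common step taken as 1 read, 69.8% of 1449 low genes gave whole numbers in all 4 libraries, within 0.03 reads. Counting error was not computed for other genes, whose depth is unknown.

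The members and lists were chosen with earlier results of these data known. Genes named are all 12 annexins, S100a10 and S100a11, up to 2 called partners per list in each direction, the 3 nearest profiles to the annexins with the highest rise and the deepest fall, Hnf4a and Cdx2. Neighbouring genes, Pla2g4a, the Fpr genes, S100a6 and Fam83a were named after their values were seen. Alternatives changed the pseudocount, the filter, the scaling, the FPKM source and the variance trend, added the replicate number as a block, and left out each library in turn.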

Additional observations from a re-analysis of the deposited data

How the results depend on the processing

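Anxa3 and Anxa10 stayed called higher in 11 of 11 alternatives, and Anxa4 stayed called in 3 of 11. Anxa10 passed the filter only through the mutant-labelled libraries, so nothing is read from its calls. Between 2 and 3 of the 10 annexins were called under every alternative, with 2 under the replicate block. Nothing in the labels ties libraries of the same number to each other, and the deviations of same-numbered libraries correlated at -0.00481. The block left 786 of 1041 calls over all genes in number. With no filter 707 of 16711 genes were called, and with a mean of at least 5 FPKM 877 of 7890. The FPKM of each library alone gave 993 calls of 10718 genes. Leaving out 1 library in turn gave 171 to 693 calls, with 171 without control 1, 176 without control 2, 693 without mutant-labelled library 1 and 506 without library 2; fewer libraries entered these fits. Partner genes called went from 5 (3 higher, 2 lower) to 7 (6 higher, 1 lower) with the FPKM of each library alone, to 3 with no filter, to 2 with a mean of at least 5 FPKM, to 3 with the replicate block and to 0 to 2 with a library left out; the stricter filter removed low genes, and the cause was not tested for the others. With 0 calls without control 1, limma gave 2895 of all genes an unadjusted p under 0.05.

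Signs turned only for differences near 0 or resting on 1 library, and the cause was not tested. With the FPKM of each library alone the log2 differences were 0.073 for Anxa2, 0.0061 for Anxa6 and 0.031 for Anxa11. Leaving out 1 library in turn gave -0.19 to 0.13 for Anxa2, -0.20 to 0.10 for Anxa6, -0.30 to 0.11 for Anxa11 and -0.093 to 0.36 for S100a10. For Anxa8 the range was -0.064, without mutant-labelled library 1, to 2.75, without library 2 (adjusted p = 0.0195). With 2 libraries a group, standard errors of the 10 annexins were 0.15 to 0.35 on the log2 scale, and a difference such as that of Anxa13 (-0.91) missed the threshold.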
